A study of Rattus norvegicus with 12 samples.

Results

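Endothelial cells line every blood and lymph vessel, and the genes described here mark these cells or carry the signals by which new vessels sprout, branch and mature. They were a list of 42 gene symbols, drawn up by the known roles of the genes at a time when earlier results of these data were known, and each was matched by its exact symbol to the deposited gene table. Of the 42, 41 were matched among 19730 genes in 12 ovary libraries, 1 library per rat. Pecam1 was not analysed here. The values are FPKM, fragments scaled to transcript length and library size, as the authors deposited them. All 41 genes were above 0 in each of the 12 libraries and had a mean of at least 1 FPKM, the level a gene needed to be tested, so none was lost to the filter; 13430 genes in all were tested.

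All rats were wild type female Sprague Dawley rats at 15 weeks of age. The control group (4 rats) was untreated and received standard food. The PCOS group (4 rats) received letrozole, an inhibitor of aromatase, the enzyme that turns androgens into estrogens, for 30 days together with a high-fat diet, a model of polycystic ovary syndrome. The PCOS-MV group (4 rats) was made in the same way and then received mogroside V, a sweet triterpene glycoside of the monk fruit, for 30 days. Diet and drug therefore differed together between the control group and both other groups. By the study's methods, letrozole and the diet ended before mogroside V began, and all rats were killed at the end of the treatment period. The PCOS ovaries were thus taken some time after letrozole had ended. A gavage without mogroside V is not described for the PCOS group. The ovaries were taken whole, and the stage of the estrous cycle of each ovary is not given in the labels. By group, the study reports longer diestrus and shorter proestrus and estrus in the PCOS rats. With mogroside V the cycle gradually returned to normal, by its account. It also reports few corpora lutea in the PCOS ovaries and more of them in both other groups. The part of these differences in the values below was not tested. Genes above 0 per library ranged from 17576 to 18247, and the read depth is unknown since the table holds FPKM only. Control replicate 3 stood apart: its summed ciliated epithelium markers were 17.7 FPKM against 1.99 to 3.86 FPKM in the other 11 libraries, and its summed smooth muscle markers were 897 FPKM against 330 to 675 FPKM.

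In the ovary, vessels are remodelled in every cycle. The theca layer of a growing follicle carries a capillary net, the granulosa layer inside it has no vessels, and after ovulation the corpus luteum forms a dense capillary bed. VEGF-A, released by granulosa, luteal and other cells, acts on receptors of the endothelium. Angiopoietins then act on Tie receptors to loosen or stabilise the vessel wall, and Notch signals between neighbouring endothelial cells set which of them leads a sprout.

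Most of the 41 genes were lower in the PCOS ovaries than in the control ovaries, and 19 of those 28 genes were higher in the PCOS-MV than in the PCOS ovaries. In PCOS against control, 28 genes fell, 5 rose (Nrp1, Angpt2, Notch4, Cd34 and Vwf) and 8 did not pass the test, which is 80.5% called beside a background of 27.4% of all tested genes. A gene was called at an adjusted p under 0.05 (limma on log2(FPKM + 1), Benjamini-Hochberg over all 13430 genes). The 28 genes that fell compare with 15.6% of all genes called lower. As a median, the log2 fold change was -0.71 for the 41 genes and -0.03 for all tested genes. In PCOS-MV against PCOS, 19 of the 41 genes rose, 4 fell (Nrp1, Angpt2, Cd34 and Cldn5) and 18 did not pass, 56.1% called beside a background of 25.7%, with 14.3% of all genes called higher. Here the median for the 41 genes was 0.35, beside 0.03 for all genes. The 19 are 67.9% of the 28 genes that had fallen in PCOS, close to the 64.8% called higher among all 2090 genes that had fallen, so a later rise was about as frequent among fallen genes at large. Both comparisons use the same 4 PCOS libraries, so their values are set side by side below and are not independent of each other. In these whole-ovary samples, fewer endothelial cells, less RNA per endothelial cell and a larger share of RNA from other cells cannot be told apart.

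**Figure D1:**
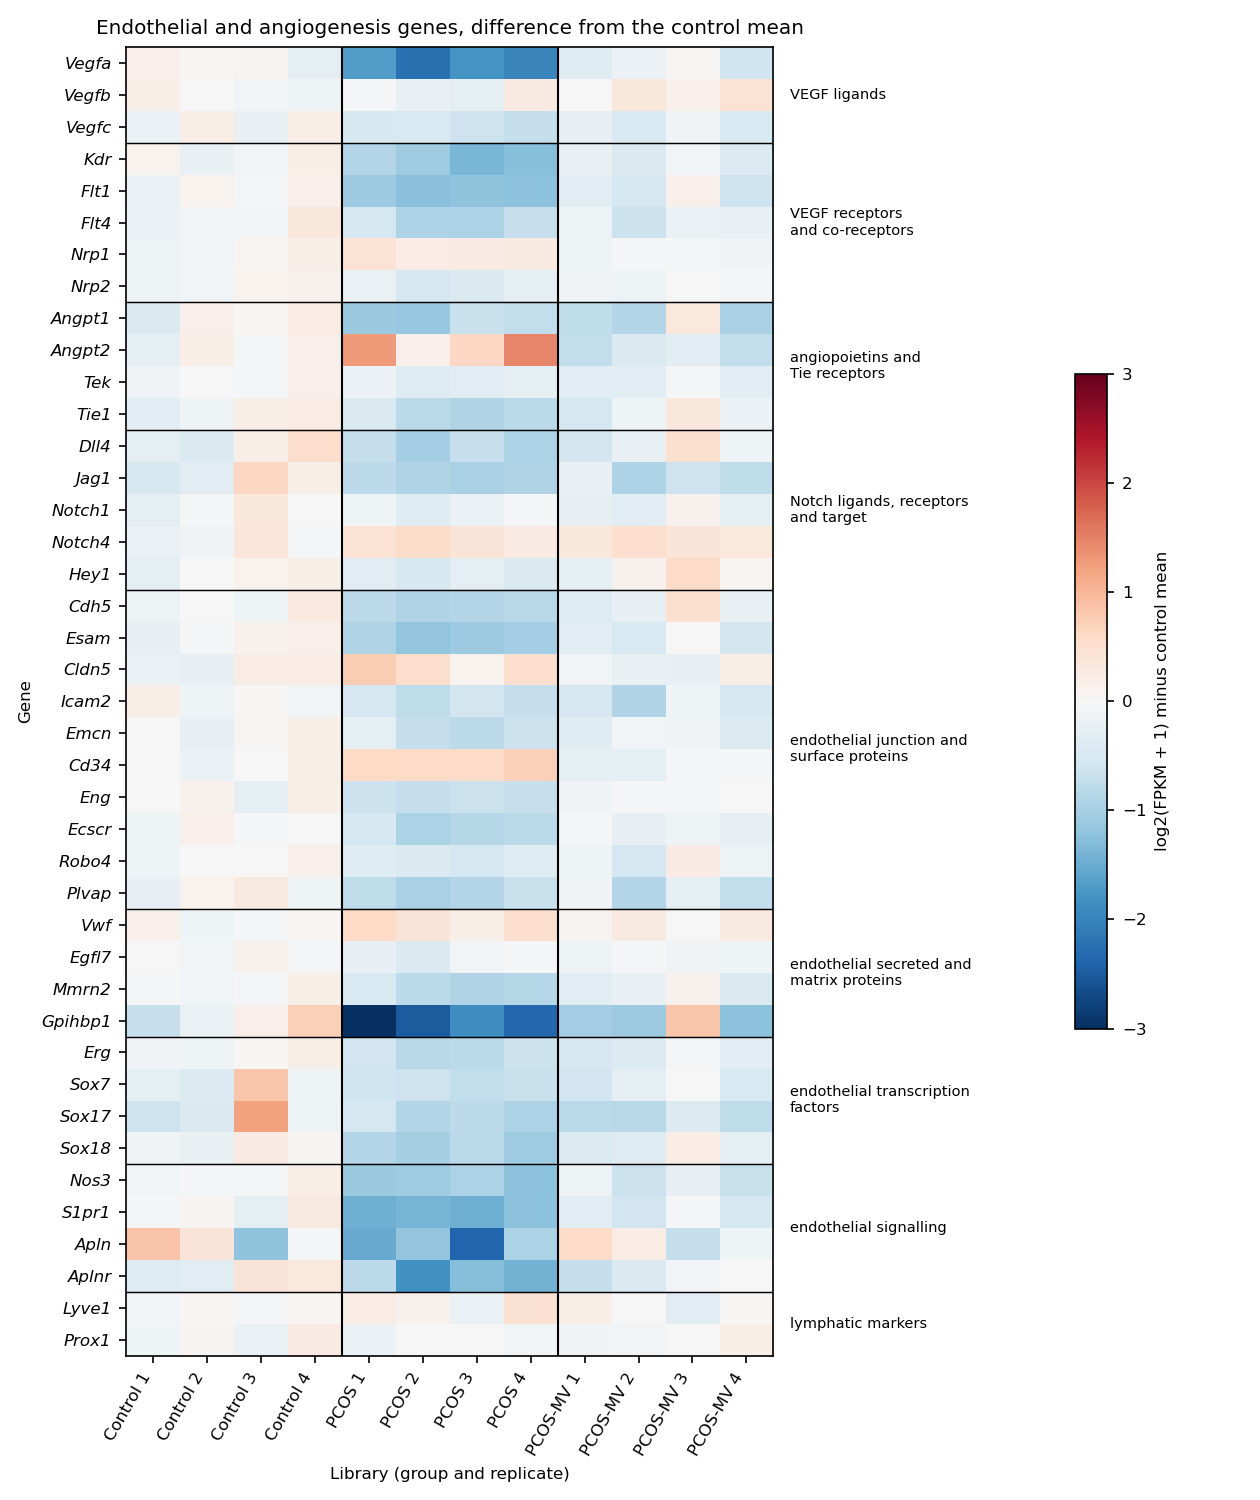
Each row is a gene, ordered by role, and each column a library; colour gives log2(FPKM + 1) minus the mean of the 4 control libraries, blue for lower and red for higher. The 4 PCOS columns are blue for most rows, with Vegfa and Gpihbp1 the deepest, while Nrp1, Angpt2, Notch4, Cldn5, Cd34 and Vwf are red there, and PCOS-MV replicate 3 is the reddest PCOS-MV column.

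The sequences just before the start of 6 of these genes are shown because they belong to genes that moved together or against each other: S1pr1, Flt1, Kdr and Nos3 had the largest falls in PCOS, and Cd34 and Nrp1 the largest rises, among called genes whose groups did not overlap and which had 1 window in the promoter table. This choice was made after the values were seen. The windows are from RefSeq, build GRCr8, and hold the 250 bases before the start, 5′ to 3′ on the strand of the gene. Capitals mark an ETS core (AGGAAG, or CTTCCT on the other strand) or a hypoxia response core (ACGTG or CACGT).
S1pr1 (chr2:206314071-206314320, - strand): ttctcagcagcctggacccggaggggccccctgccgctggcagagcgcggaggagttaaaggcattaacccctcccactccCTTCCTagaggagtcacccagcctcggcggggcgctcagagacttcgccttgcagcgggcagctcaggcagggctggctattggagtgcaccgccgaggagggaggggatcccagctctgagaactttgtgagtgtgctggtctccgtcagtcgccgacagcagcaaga
Flt1 (chr12:12333180-12333429, + strand): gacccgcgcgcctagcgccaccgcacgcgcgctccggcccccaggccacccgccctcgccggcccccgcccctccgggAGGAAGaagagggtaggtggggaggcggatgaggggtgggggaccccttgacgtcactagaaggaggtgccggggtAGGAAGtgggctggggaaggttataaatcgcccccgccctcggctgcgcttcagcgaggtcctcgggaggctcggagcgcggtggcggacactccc
Kdr (chr14:32571813-32572062, + strand): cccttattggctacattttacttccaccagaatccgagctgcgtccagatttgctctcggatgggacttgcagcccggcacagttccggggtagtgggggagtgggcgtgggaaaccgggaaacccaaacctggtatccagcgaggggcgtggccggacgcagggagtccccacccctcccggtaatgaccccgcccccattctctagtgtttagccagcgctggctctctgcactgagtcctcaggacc
Nos3 (chr4:11706582-11706831, - strand): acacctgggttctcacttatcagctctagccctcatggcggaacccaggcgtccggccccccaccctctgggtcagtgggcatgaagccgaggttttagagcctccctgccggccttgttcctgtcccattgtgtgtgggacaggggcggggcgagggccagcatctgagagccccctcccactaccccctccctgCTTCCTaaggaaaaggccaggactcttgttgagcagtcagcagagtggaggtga
Cd34 (chr13:109008536-109008785, + strand): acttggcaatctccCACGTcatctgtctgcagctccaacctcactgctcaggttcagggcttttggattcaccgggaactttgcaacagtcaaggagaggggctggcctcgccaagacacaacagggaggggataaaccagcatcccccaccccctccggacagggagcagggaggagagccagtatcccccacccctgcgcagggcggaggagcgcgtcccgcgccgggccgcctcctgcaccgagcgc
Nrp1 (chr19:73256307-73256556, + strand): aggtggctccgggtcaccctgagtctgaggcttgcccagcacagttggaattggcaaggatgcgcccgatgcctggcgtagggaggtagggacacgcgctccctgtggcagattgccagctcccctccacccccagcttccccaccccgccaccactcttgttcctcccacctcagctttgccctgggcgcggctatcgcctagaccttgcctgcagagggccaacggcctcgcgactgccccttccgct

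The ETS core is a form of the letters bound by ETS factors such as Erg and Fli1. It began 169 bases before the start in S1pr1, 172 and 96 bases before it in Flt1 and 54 in Nos3. The hypoxia response core, a form of the letters bound by HIF factors, began 236 bases before the start of Cd34. The windows of Kdr and Nrp1 held neither of these exact strings. None of the 6 held a SoxF core (AACAAT or ATTGTT) or a forkhead motif (TGTTTAC or GTAAACA). Other forms of these sites were not searched, so windows without a match can still hold such forms. Over windows of 250 bases before to 50 after the start, 26 of the 41 genes matched the table, in 30 windows. The ETS core was in 14 of those 30 windows (46.7%) and in 34.5% of all 33469 windows. The hypoxia response core was in 3 of the 30 windows and 19.3% of all, the SoxF core in 3 of 30 and 11.7%, and the forkhead motif in 0 of 30 and 3.78%. The genes with an ETS core were Apln, Egfl7, Emcn, Eng, Erg, Flt1, Flt4, Lyve1, Mmrn2, Nos3, Plvap, Robo4, S1pr1 and Tie1, which include genes that fell and genes that were not called in PCOS. These are matches of letters and not binding sites.

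The largest fall among the signals themselves was that of Vegfa, the main growth factor for blood vessels (ENSRNOG00000019598, chromosome 9, 17340341 to 17355681 in the coordinates of the authors' table, whose build is not given in the sources used here). Vegfa was at 54.5, 51.0, 52.0 and 40.1 FPKM in the control libraries, 14.8, 9.59, 13.5 and 11.7 FPKM in the PCOS libraries and 38.2, 43.0, 50.4 and 32.0 FPKM in the PCOS-MV libraries. Every PCOS library lay below every library of the other 2 groups, and the PCOS-MV and control libraries overlapped. In PCOS, Vegfa fell by 1.92 on the log2 scale (SE 0.14, adjusted p = 4.45e-05), to 25.1% of the control mean, and rose by 1.64 in PCOS-MV against PCOS (SE 0.16, adjusted p = 0.000365). Each leave-one-out fit kept both calls.

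Vegfb, a ligand of Flt1 with little effect on sprouting, did not follow. Its values were 10.7, 9.10, 8.58 and 8.25 FPKM in the control libraries, 8.88, 7.64, 7.30 and 11.2 FPKM in the PCOS libraries and 9.15, 11.7, 10.2 and 12.6 FPKM in the PCOS-MV libraries. The 3 groups overlapped, and neither change passed the test (log2 fold change -0.07, 95% interval -0.37 to 0.24, adjusted p = 0.734 in PCOS; 0.30, 95% interval -0.03 to 0.62, adjusted p = 0.161 in PCOS-MV against PCOS). The ratio of Vegfa to Vegfb FPKM, computed after the values were seen, was therefore 4.86 to 6.06 in control, 1.05 to 1.85 in PCOS and 2.55 to 4.93 in PCOS-MV libraries.

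Vegfc, the growth factor of lymph vessels, was at 6.14, 8.40, 6.02 and 8.35 FPKM in the control libraries, 4.86, 4.94, 4.27 and 4.00 FPKM in the PCOS libraries and 5.91, 4.94, 6.52 and 4.89 FPKM in the PCOS-MV libraries. All PCOS values lay below all control values, and PCOS replicate 2, the highest of its group, lay within the PCOS-MV range. Vegfc fell by 0.57 in PCOS (SE 0.13, adjusted p = 0.0108), and its difference of 0.25 in PCOS-MV against PCOS was not called (SE 0.11, adjusted p = 0.127).

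All 5 receptors and co-receptors changed in both comparisons, beside 27.4% and 25.7% of all genes called. Of the 5, Nrp1 moved against the other 4. Kdr, the receptor that carries most of the VEGF-A signal in blood vessels, was at 26.5, 20.9, 23.3 and 28.5 FPKM in the control libraries, 12.9, 11.3, 8.85 and 9.58 FPKM in the PCOS libraries and 20.9, 17.9, 23.2 and 18.3 FPKM in the PCOS-MV libraries. The PCOS libraries did not overlap those of either other group. Kdr fell by 1.15 in PCOS (SE 0.13, adjusted p = 0.000422) and rose by 0.86 in PCOS-MV against PCOS (SE 0.13, adjusted p = 0.00213).

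Flt1 binds VEGF-A tightly and signals weakly, and its soluble form traps the ligand. Flt1 measured 12.1, 15.1, 13.2 and 15.4 FPKM in the control libraries, 6.04, 5.22, 5.43 and 5.32 FPKM in the PCOS libraries and 11.0, 9.31, 15.5 and 8.66 FPKM in the PCOS-MV libraries. The 4 PCOS values lay close together and apart from both other groups. It fell by 1.20 in PCOS (SE 0.09, adjusted p = 5.28e-05) and rose by 0.87 in PCOS-MV against PCOS (SE 0.16, adjusted p = 0.0055). The table gives 1 value per gene, so the soluble form cannot be told apart from the membrane form here.

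Flt4, the receptor of VEGF-C on lymphatic and sprouting blood vessels, was at 10.6, 11.5, 11.4 and 15.6 FPKM in the control libraries, 8.09, 5.97, 5.81 and 7.21 FPKM in the PCOS libraries and 10.9, 7.41, 10.4 and 10.2 FPKM in the PCOS-MV libraries. PCOS lay below control without overlap, whereas PCOS-MV replicate 2 lay below PCOS replicate 1. Flt4 fell by 0.77 in PCOS (SE 0.14, adjusted p = 0.00403). Its rise of 0.46 in PCOS-MV (SE 0.14, adjusted p = 0.0402) was kept in 2 of 8 leave-one-out fits, those without PCOS replicate 1 or PCOS-MV replicate 2, and its adjusted p reached 0.105 without PCOS replicate 2.

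The neuropilins are co-receptors shared by VEGF and semaphorins. Nrp1, found on arteries and on many other cells, was at 27.4, 29.2, 32.4 and 34.7 FPKM in the control libraries, 41.8, 36.2, 36.7 and 37.1 FPKM in the PCOS libraries and 27.7, 29.5, 30.0 and 28.4 FPKM in the PCOS-MV libraries. All PCOS values were above all values of both other groups, by a small margin over control. Nrp1 rose by 0.29 in PCOS (SE 0.09, adjusted p = 0.0412), a call kept in 2 of 8 leave-one-out fits (without control replicate 3 or 4) and lost at an adjusted p of up to 0.104 (without control replicate 2). It fell by 0.38 in PCOS-MV against PCOS (SE 0.07, adjusted p = 0.00503), which each leave-one-out fit kept.

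Nrp2, the neuropilin of veins and lymph vessels, went the other way, at 12.2, 12.9, 14.9 and 15.1 FPKM in the control libraries, 11.8, 9.20, 9.91 and 11.1 FPKM in the PCOS libraries and 12.6, 12.2, 13.6 and 13.3 FPKM in the PCOS-MV libraries. PCOS lay just below control and PCOS-MV, the nearest values being 11.8 FPKM in PCOS against 12.2 FPKM in each other group. It fell by 0.36 in PCOS (SE 0.10, adjusted p = 0.0301) and rose by 0.28 in PCOS-MV (SE 0.09, adjusted p = 0.0472). Both calls were fragile: the first was kept only without control replicate 1 or PCOS replicate 1, the second only without PCOS replicate 1, and without PCOS replicate 2 their adjusted p was 0.0828 and 0.121.

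The angiopoietins moved in opposite directions in PCOS. Angpt1, made by cells around the vessel and an activator of Tek, was at 8.11, 12.6, 11.7 and 13.2 FPKM in the control libraries, 4.65, 4.57, 6.65 and 6.29 FPKM in the PCOS libraries and 6.26, 5.62, 14.3 and 5.24 FPKM in the PCOS-MV libraries. Control lay above PCOS without overlap, and in the PCOS-MV group only replicate 3 reached control levels. Angpt1 fell by 0.92 in PCOS (SE 0.17, adjusted p = 0.00437), and its difference in PCOS-MV against PCOS was not called (0.35, 95% interval -0.29 to 0.98, adjusted p = 0.397).

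Angpt2, released by endothelial cells and often an antagonist of Angpt1 at Tek, was at 3.63, 5.46, 4.47 and 5.28 FPKM in the control libraries, 12.7, 5.27, 7.73 and 14.7 FPKM in the PCOS libraries and 2.41, 3.20, 3.46 and 2.42 FPKM in the PCOS-MV libraries. PCOS replicate 2 lay within the control range and the other 3 PCOS libraries above it, while all PCOS-MV values lay below all values of both other groups. Angpt2 rose by 0.88 in PCOS (SE 0.28, adjusted p = 0.0446; exact permutation p = 0.0857), a call kept only without PCOS replicate 2 and at an adjusted p of 0.107 without PCOS replicate 1. It fell by 1.44 in PCOS-MV against PCOS (SE 0.28, adjusted p = 0.00675), kept in each leave-one-out fit. The ratio of Angpt2 to Angpt1 FPKM, chosen after the values were seen and given without a test, was 0.381 to 0.448 in control, 1.15 to 2.74 in PCOS and 0.242 to 0.569 in PCOS-MV libraries.

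Their receptor Tek changed little. Its group means were 17.2 ± 1.47 FPKM in control, 13.9 ± 0.920 FPKM in PCOS and 14.2 ± 1.50 FPKM in PCOS-MV (SD, n = 4 each). The fall of 0.29 in PCOS (SE 0.08, adjusted p = 0.0265) was kept in 3 of 8 leave-one-out fits (without control replicate 1, control replicate 3 or PCOS replicate 1) and had an adjusted p of 0.0793 without PCOS replicate 2. The difference between PCOS-MV and PCOS was 0.03 (95% interval -0.17 to 0.23, adjusted p = 0.834). Tie1, an orphan partner of Tek, changed more: its means were 26.3 ± 4.80 FPKM in control, 15.3 ± 2.49 FPKM in PCOS and 24.4 ± 6.52 FPKM in PCOS-MV. Tie1 fell by 0.74 (SE 0.15, adjusted p = 0.00701) and then rose by 0.61 (SE 0.18, adjusted p = 0.0384). The rise was kept only without PCOS replicate 1 or PCOS-MV replicate 1, and its adjusted p was 0.0964 without PCOS replicate 3.

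**Figure D2:**
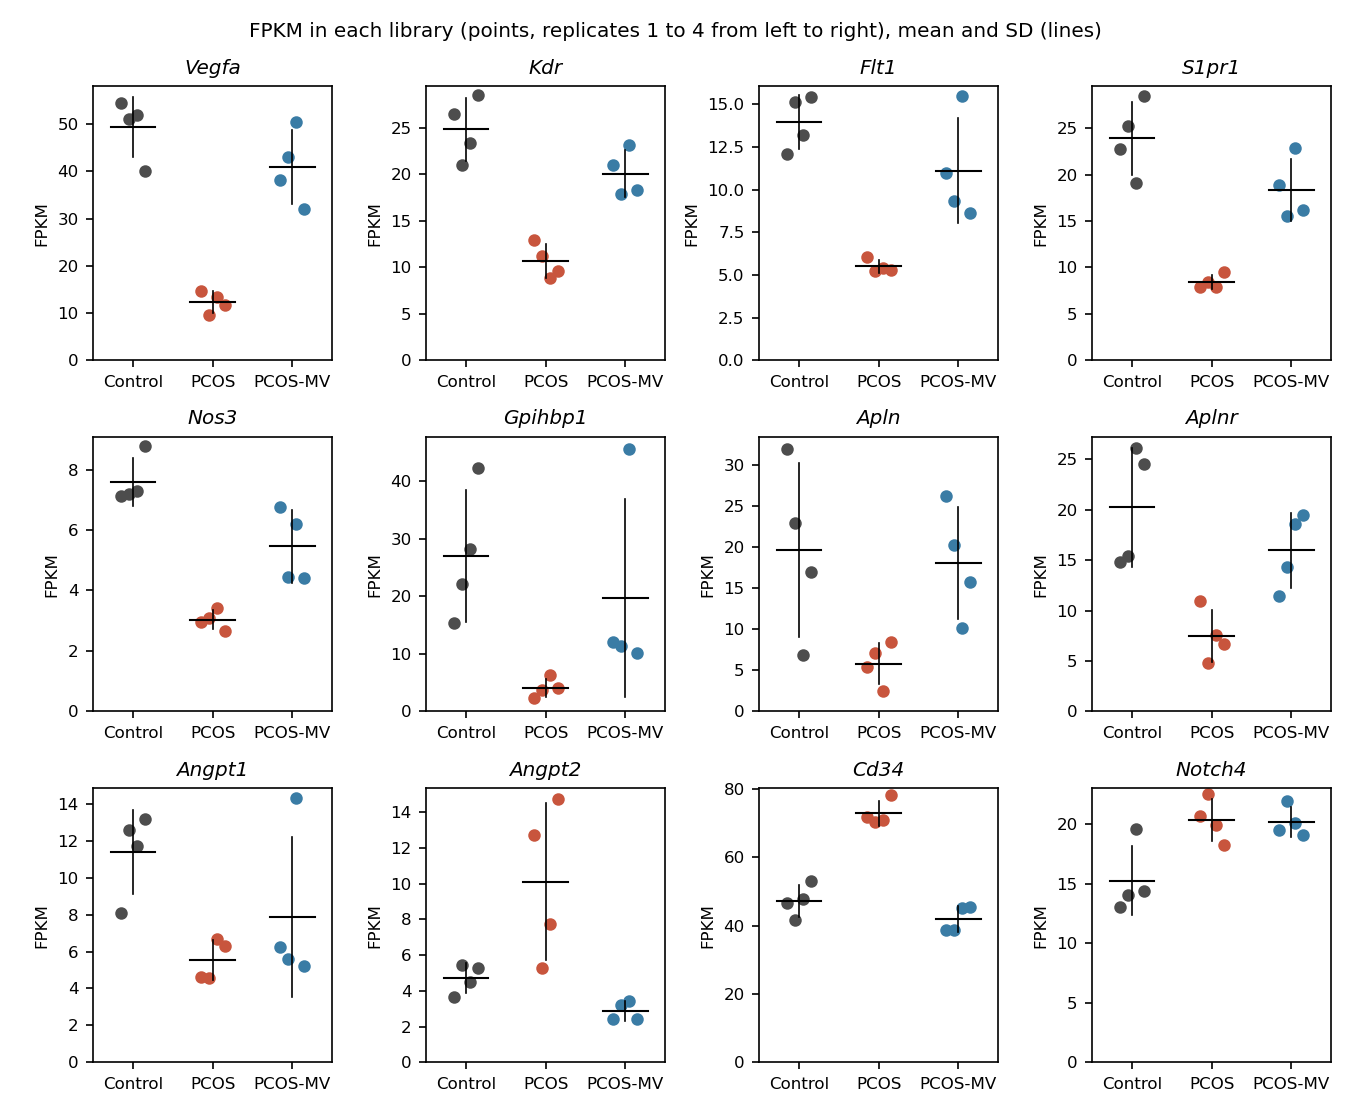
FPKM of 12 genes in each library (points, replicates 1 to 4 from left to right in each group), with the mean (horizontal line) and SD (vertical line) of the 4 libraries; each axis starts at 0. The PCOS points lie below both other groups for Vegfa, Kdr, Flt1, S1pr1, Nos3, Gpihbp1 and Aplnr and above both for Cd34, while Notch4 stays as high in PCOS-MV as in PCOS.

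Among 5 Notch genes, 3 fell and 1 rose in PCOS, and 1 rose in PCOS-MV against PCOS. This is 80% called beside 27.4% of all genes, and then 20%, below the 25.7% of all genes. Dll4, the ligand of tip cells and arteries, was at 3.64, 3.12, 5.35 and 7.06 FPKM in the control libraries, 2.39, 1.77, 2.46 and 1.91 FPKM in the PCOS libraries and 2.83, 3.81, 6.86 and 4.13 FPKM in the PCOS-MV libraries. The PCOS values lay below those of both other groups, which both spread widely. It fell by 0.84 in PCOS (SE 0.21, adjusted p = 0.0168) and rose by 0.74 in PCOS-MV (SE 0.20, adjusted p = 0.0287), the rise being lost without PCOS replicate 2, PCOS replicate 4 or PCOS-MV replicate 4, at an adjusted p of up to 0.0766.

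Jag1, a ligand also made by mural and granulosa cells, was at 13.7, 15.1, 30.7 and 22.2 FPKM in the control libraries, 10.9, 9.98, 9.44 and 9.88 FPKM in the PCOS libraries and 16.4, 9.70, 12.4 and 11.0 FPKM in the PCOS-MV libraries. Control replicate 3, the library with the high ciliated and smooth muscle sums, was the highest of all 12. Jag1 fell by 0.89 in PCOS (SE 0.22, adjusted p = 0.0176), a call kept in each leave-one-out fit, that library's included, and its difference of 0.25 in PCOS-MV against PCOS was not called (SE 0.14, adjusted p = 0.229).

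The endothelial receptor Notch4 was on average 15.3 ± 2.92 FPKM in control, 20.3 ± 1.79 FPKM in PCOS and 20.2 ± 1.27 FPKM in PCOS-MV, so that PCOS-MV stayed at the PCOS level. It rose by 0.40 in PCOS (SE 0.13, adjusted p = 0.0425), a call that held only without control replicate 3 and reached an adjusted p of 0.111 without PCOS replicate 2. Its difference between PCOS-MV and PCOS was -0.01 (95% interval -0.20 to 0.18). Notch1, a receptor of many cell types, had means of 9.46 ± 1.89, 8.11 ± 0.840 and 8.22 ± 1.36 FPKM in the same order and was called in neither comparison. Hey1, a direct target of Notch, had means of 2.82 ± 0.496, 1.92 ± 0.181 and 3.21 ± 1.04 FPKM. It fell by 0.38 (SE 0.12, adjusted p = 0.0445), kept only without control replicate 1 and with an adjusted p of 0.113 without PCOS replicate 2. In PCOS-MV against PCOS the groups of Hey1 lay close without overlap, and the difference of 0.50 missed the threshold (SE 0.17, adjusted p = 0.0576).

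Of 10 junction and surface genes, 8 fell and 1 rose in PCOS, and 4 rose and 2 fell in PCOS-MV against PCOS. The shares called were 90% and 60%, beside 27.4% and 25.7% of all genes. Cdh5, VE-cadherin of the endothelial adherens junction, was at 25.4, 28.3, 26.0 and 35.0 FPKM in the control libraries, 16.0, 14.7, 15.1 and 15.5 FPKM in the PCOS libraries and 21.5, 23.9, 40.4 and 24.4 FPKM in the PCOS-MV libraries. The PCOS values spanned a narrow range below both other groups, and PCOS-MV replicate 3 was the highest of all libraries. Cdh5 fell by 0.85 (SE 0.10, adjusted p = 0.000521) and rose by 0.76 (SE 0.17, adjusted p = 0.0139).

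Esam, an adhesion molecule of the tight junction, was at 19.3, 22.6, 25.1 and 25.6 FPKM in the control libraries, 11.8, 9.50, 10.2 and 10.9 FPKM in the PCOS libraries and 17.9, 16.4, 22.8 and 15.5 FPKM in the PCOS-MV libraries. PCOS did not overlap the other groups. It fell by 1.05 (SE 0.11, adjusted p = 0.00019) and rose by 0.71 (SE 0.12, adjusted p = 0.00444). Ecscr, a surface protein that tunes VEGF signalling, was at 4.71, 5.90, 5.01 and 5.28 FPKM in the control libraries, 3.28, 2.21, 2.45 and 2.57 FPKM in the PCOS libraries and 4.995, 4.23, 4.67 and 4.20 FPKM in the PCOS-MV libraries. Its PCOS values also lay below those of both other groups, with a fall of 0.79 (SE 0.11, adjusted p = 0.00123) and a rise of 0.61 (SE 0.11, adjusted p = 0.00444).

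Plvap, which forms the diaphragms of fenestrated capillaries, was at 7.85, 10.3, 11.7 and 8.50 FPKM in the control libraries, 5.21, 4.37, 4.67 and 5.64 FPKM in the PCOS libraries and 8.70, 4.68, 7.51 and 5.25 FPKM in the PCOS-MV libraries. Control lay above PCOS without overlap, and PCOS-MV spanned both. It fell by 0.82 (SE 0.13, adjusted p = 0.00203), and its difference of 0.31 in PCOS-MV was not called (SE 0.17, adjusted p = 0.232).

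Cd34, a sialomucin of capillary endothelium that stromal fibroblasts and progenitor cells also carry, was the clearest exception. It was at 46.5, 41.5, 47.7 and 53.0 FPKM in the control libraries, 71.9, 70.3, 70.7 and 78.2 FPKM in the PCOS libraries and 38.8, 38.8, 45.2 and 45.4 FPKM in the PCOS-MV libraries. All 4 PCOS libraries lay above all 8 others. Cd34 rose by 0.62 in PCOS (SE 0.08, adjusted p = 0.001) and fell by 0.78 in PCOS-MV against PCOS (SE 0.08, adjusted p = 0.000434), both kept in each leave-one-out fit. It was the only one of the 5 genes higher in PCOS whose call was kept in all 8 such fits.

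The TGF-beta co-receptor Eng, endoglin, was at 42.5 to 58.6 FPKM in control, 31.1 to 32.9 FPKM in PCOS and 47.8 to 51.7 FPKM in PCOS-MV libraries, with a fall of 0.67 (SE 0.10, adjusted p = 0.00157) and a rise of 0.62 (SE 0.06, adjusted p = 0.000269). The surface genes Icam2, Emcn and Robo4 fell in PCOS and were not called in PCOS-MV against PCOS. Icam2, a ligand of leukocyte integrins, went from 8.20 ± 0.976 to 4.92 ± 0.541 FPKM and was 5.56 ± 1.42 FPKM in PCOS-MV. Emcn, endomucin of veins and capillaries, went from 17.1 ± 2.30 to 10.9 ± 1.89 FPKM and was 14.3 ± 1.85 FPKM in PCOS-MV. Robo4, a guidance receptor that stabilises vessels, went from 2.32 ± 0.267 to 1.48 ± 0.134 FPKM and was 2.05 ± 0.653 FPKM in PCOS-MV. Their log2 fold changes in PCOS were -0.63, -0.61 and -0.42. Cldn5, the claudin of endothelial tight junctions, was 25.5 ± 4.72 FPKM in control, 35.8 ± 6.70 FPKM in PCOS and 23.9 ± 3.78 FPKM in PCOS-MV. Its difference of 0.47 in PCOS was not called (SE 0.17, adjusted p = 0.0669). Cldn5 fell by 0.55 in PCOS-MV against PCOS (SE 0.15, adjusted p = 0.0303), kept only without PCOS replicate 3 or PCOS-MV replicate 4 and with an adjusted p of 0.0764 without PCOS replicate 2.

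The largest fall of all 41 genes was that of Gpihbp1, which carries lipoprotein lipase across the capillary wall and is abundant in fat and muscle capillaries. Gpihbp1 was at 15.4, 22.0, 28.2 and 42.3 FPKM in the control libraries, 2.33, 3.64, 6.23 and 4.12 FPKM in the PCOS libraries and 12.1, 11.3, 45.5 and 10.2 FPKM in the PCOS-MV libraries. Every PCOS value lay below every value of the other groups, the control values spread widely, and PCOS-MV replicate 3 lay far above the other 3 of its group. It fell by 2.43 in PCOS (SE 0.32, adjusted p = 0.0008), to 15.1% of the control mean, and rose by 1.80 in PCOS-MV (SE 0.45, adjusted p = 0.021). The rise was not called without PCOS replicate 1, 2 or 4, at an adjusted p of up to 0.0553, and was still called without PCOS-MV replicate 3.

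Mmrn2, a matrix protein of the vessel wall, was at 13.5, 13.2, 13.8 and 16.0 FPKM in the control libraries, 10.1, 7.83, 7.04 and 7.31 FPKM in the PCOS libraries and 11.2, 11.9, 15.6 and 10.2 FPKM in the PCOS-MV libraries. PCOS lay below both other groups, at 10.1 FPKM in PCOS replicate 1 against 10.2 FPKM in PCOS-MV replicate 4. It fell by 0.75 (SE 0.11, adjusted p = 0.00168) and rose by 0.54 (SE 0.15, adjusted p = 0.0269); the rise was kept without PCOS replicate 1 or PCOS-MV replicate 1, 3 or 4 and lost without each of the other libraries, at an adjusted p of up to 0.0748 (without PCOS replicate 4).

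Vwf, the clotting factor stored in endothelial granules, was 9.56 ± 0.926 FPKM in control, 13.1 ± 1.70 FPKM in PCOS and 10.8 ± 1.10 FPKM in PCOS-MV. It rose by 0.41 in PCOS (SE 0.11, adjusted p = 0.0211), lost without control replicate 2, PCOS replicate 1 or PCOS replicate 4 at an adjusted p of up to 0.0632, and its difference of -0.25 in PCOS-MV was not called (SE 0.11, adjusted p = 0.132). Egfl7, a matrix protein of young vessels, had means of 7.67 ± 0.522, 6.53 ± 0.889 and 7.06 ± 0.252 FPKM and was called in neither comparison.

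Of 4 endothelial transcription factors, Erg and Sox18 fell in PCOS and rose in PCOS-MV against PCOS, and Sox7 and Sox17 were not called. That is 50% called in each comparison, beside 27.4% and 25.7% of all genes. Sox18, a SoxF factor of blood and lymphatic endothelium, was at 18.5, 17.0, 23.9 and 21.2 FPKM in the control libraries, 10.4, 9.50, 10.9 and 8.96 FPKM in the PCOS libraries and 14.8, 15.0, 23.5 and 16.3 FPKM in the PCOS-MV libraries. The PCOS libraries lay below all others. Sox18 fell by 0.94 (SE 0.11, adjusted p = 0.000494) and rose by 0.73 (SE 0.14, adjusted p = 0.00779). Erg, an ETS factor that maintains endothelial identity, was 6.60 ± 0.777 FPKM in control, 3.64 ± 0.405 FPKM in PCOS and 5.07 ± 0.854 FPKM in PCOS-MV. It fell by 0.71 (SE 0.10, adjusted p = 0.00132) and rose by 0.38 (SE 0.12, adjusted p = 0.0432), the rise being kept only without PCOS replicate 1 or PCOS-MV replicate 1 and at 0.111 without PCOS replicate 2.

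Sox7 and Sox17, the other SoxF factors, were set apart by 1 library. Sox7 was 4.80 FPKM in control replicate 3 against 1.43 to 1.94 FPKM in the other control libraries, and Sox17 was 23.5 FPKM there against 5.87 to 8.52 FPKM. Sox7 ranged from 0.955 to 1.15 FPKM in PCOS and from 1.18 to 2.28 FPKM in PCOS-MV, and its difference of -0.65 in PCOS had an adjusted p of 0.0925, with groups that did not overlap. Sox17 ranged from 4.49 to 6.30 FPKM in PCOS and 4.95 to 6.96 FPKM in PCOS-MV, with an adjusted p of 0.143 in PCOS. The part of that library's other cell types in these values was not tested.

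All 4 signalling genes fell in PCOS and rose in PCOS-MV against PCOS, beside 27.4% and 25.7% of all genes called. S1pr1, the sphingosine-1-phosphate receptor that quiets sprouting and tightens junctions, was at 22.7, 25.2, 19.1 and 28.5 FPKM in the control libraries, 7.93, 8.44, 7.94 and 9.55 FPKM in the PCOS libraries and 18.8, 15.5, 22.9 and 16.2 FPKM in the PCOS-MV libraries. PCOS lay far below both other groups. It fell by 1.38 (SE 0.12, adjusted p = 9.49e-05) and rose by 1.02 (SE 0.12, adjusted p = 0.00083).

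Nos3, the endothelial nitric oxide synthase, was at 7.12, 7.18, 7.29 and 8.77 FPKM in the control libraries, 2.97, 3.08, 3.42 and 2.64 FPKM in the PCOS libraries and 6.76, 4.44, 6.21 and 4.42 FPKM in the PCOS-MV libraries. The 3 groups did not overlap one another, with control highest and PCOS lowest. Nos3 fell by 1.09 (SE 0.10, adjusted p = 9.53e-05) and rose by 0.66 (SE 0.14, adjusted p = 0.00956). Its difference between PCOS-MV and control was -0.43 (95% interval -0.75 to -0.10, adjusted p = 0.521).

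Apelin and its receptor act in sprouting capillaries. Apln, the ligand, was at 32.0, 22.9, 6.85 and 17.0 FPKM in the control libraries, 5.40, 7.06, 2.49 and 8.41 FPKM in the PCOS libraries and 26.2, 20.3, 10.1 and 15.8 FPKM in the PCOS-MV libraries. Control replicate 3 lay within the PCOS range and control spread widely, while PCOS-MV lay above PCOS. Apln fell by 1.51 in PCOS (SE 0.46, adjusted p = 0.0393; exact permutation p = 0.0857), kept only without control replicate 3 or PCOS replicate 4 and at an adjusted p of 0.0968 without control replicate 2. It rose by 1.50 in PCOS-MV (SE 0.35, adjusted p = 0.016), kept in each leave-one-out fit. Aplnr, the receptor, was at 14.9, 15.4, 26.1 and 24.5 FPKM in the control libraries, 10.9, 4.81, 7.57 and 6.67 FPKM in the PCOS libraries and 11.5, 14.3, 18.6 and 19.5 FPKM in the PCOS-MV libraries. PCOS did not overlap the other groups, though PCOS replicate 1 was close to PCOS-MV replicate 1. It fell by 1.33 (SE 0.25, adjusted p = 0.00545) and rose by 1.02 (SE 0.23, adjusted p = 0.0145).

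Neither lymphatic marker was called in any of the 3 comparisons (limma; 0 of 2 at an unadjusted p under 0.05 in each). Lyve1, a hyaluronan receptor of lymph vessels and some macrophages, was 4.14 ± 0.268, 4.79 ± 1.05 and 4.11 ± 0.698 FPKM in control, PCOS and PCOS-MV. Prox1, the master factor of lymphatic identity, was 2.25 ± 0.465, 2.08 ± 0.160 and 2.24 ± 0.327 FPKM. Their log2 fold changes in PCOS had 95% intervals of -0.15 to 0.46 and -0.34 to 0.21, so a change of a size within these bounds could not be told from none.

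**Figure D3:**
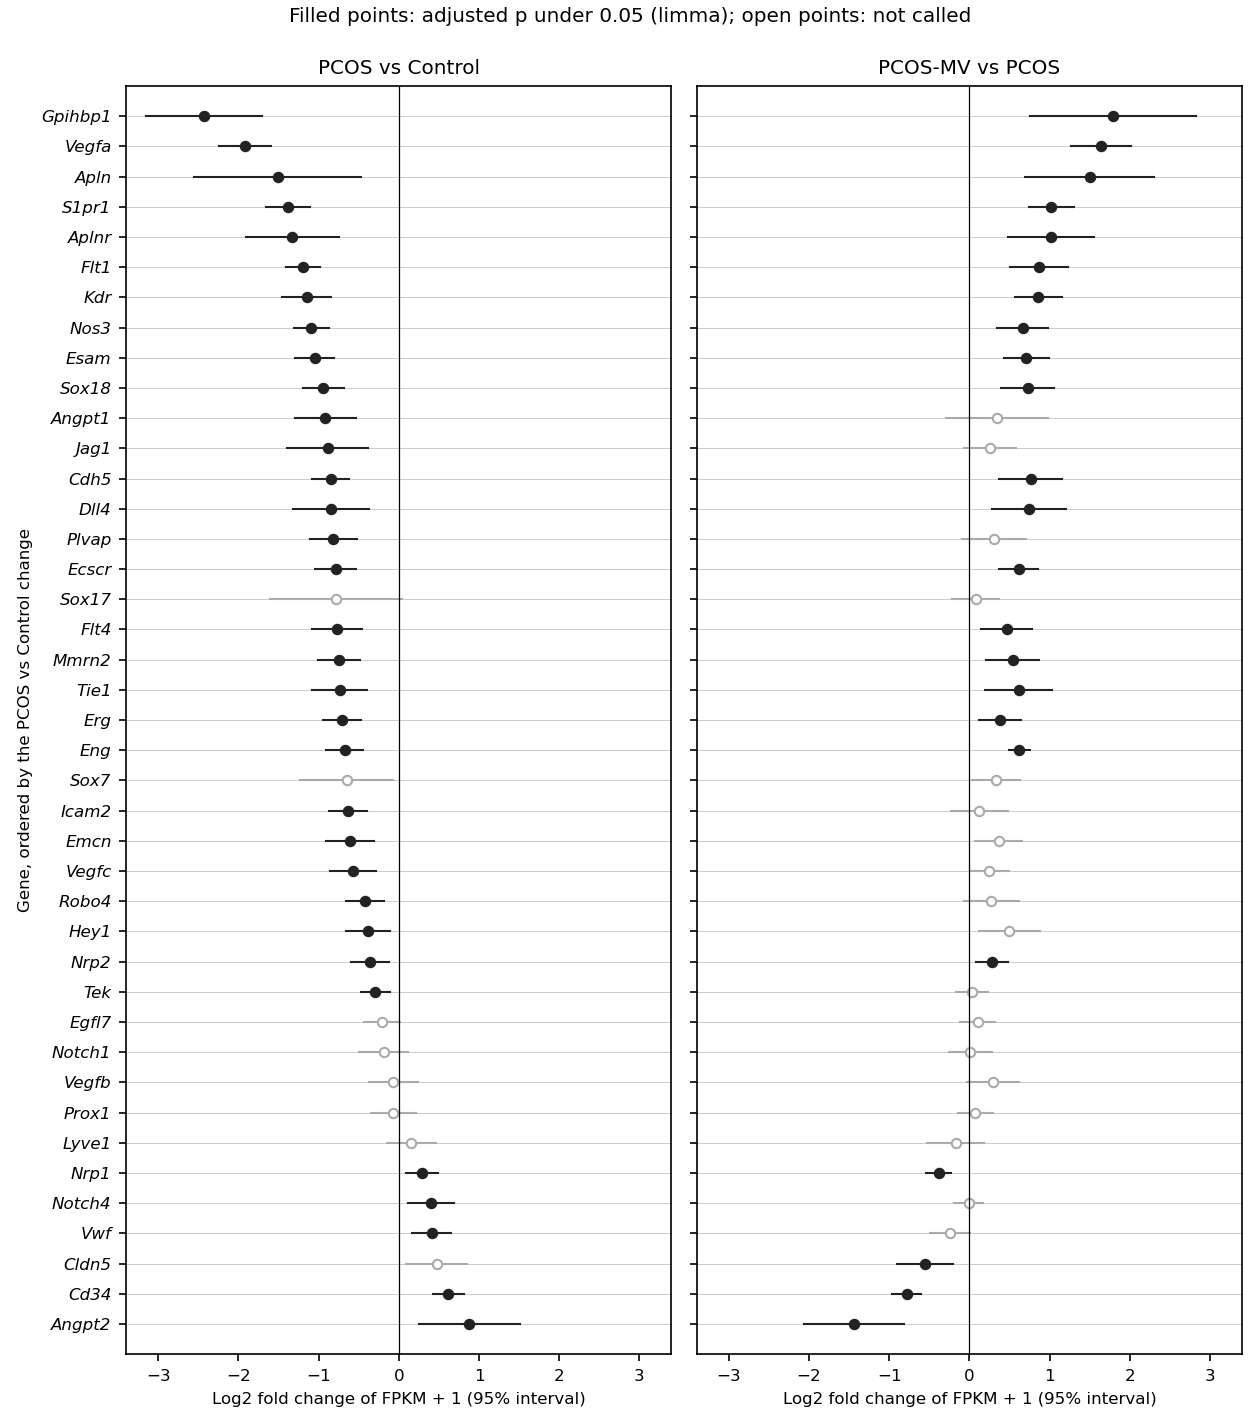
Log2 fold change of FPKM + 1 with its 95% interval (lines) for the 41 genes, ordered by the change in PCOS against control (left) and shown in the same order for PCOS-MV against PCOS (right); filled points were called at an adjusted p under 0.05. Gpihbp1, Vegfa and Apln are at the lower end on the left and the upper end on the right, and Angpt2, Cd34 and Cldn5 at the opposite ends.

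Across the 41 genes, the 2 comparisons combined as follows. Lower in PCOS and higher in PCOS-MV than in PCOS were 19 genes, and lower in PCOS without a call in PCOS-MV were 9 (Vegfc, Angpt1, Tek, Jag1, Hey1, Icam2, Emcn, Robo4 and Plvap). Nrp1, Angpt2 and Cd34 were higher and then lower, Notch4 and Vwf higher without a later call, Cldn5 only lower in PCOS-MV, and 7 were called in neither. Of the 28 calls lower in PCOS, 24 were kept in all 8 leave-one-out fits. Of the 19 calls higher in PCOS-MV against PCOS, 12 were so kept (Vegfa, Kdr, Flt1, Cdh5, Esam, Eng, Ecscr, Sox18, Nos3, S1pr1, Apln and Aplnr). Leaving out PCOS replicate 2 or PCOS replicate 4 lowered the 19 to 12 genes called higher. Groups that did not overlap were found for 28 genes lower and 3 higher in PCOS (17.2% and 13.8% of all genes), and for 19 higher and 3 lower in PCOS-MV against PCOS (16.7% and 13.3% of all genes); the exact two-sided permutation test gives each of these 0.0286, the smallest p that 4 against 4 libraries allow.

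How close the PCOS-MV ovaries came to the control ovaries was asked directly. In PCOS-MV against control, 0 of 41 genes were called (limma, the only tool used for calls). Of the 41, 12 had an unadjusted p under 0.05 by limma. The background was 0.00745% called and 8.5% of all genes at that unadjusted p. Those 12 genes were Angpt2, Erg, Esam, Icam2, Jag1, Kdr, Nos3, Notch4, Plvap, S1pr1, Tek and Vegfc, and Notch4 alone of them was higher in PCOS-MV. The log2 fold change was below 0 for 36 of the 41 genes (87.8%) and for 50.9% of all tested genes, with a median of -0.21 against -0.00. Of the 28 genes lower in PCOS, 27 (96.4%) had a PCOS-MV mean between the PCOS and control means and 1, Hey1, above the control mean. Among all 2090 genes called lower in PCOS, 66% lay between and 32.4% above the control mean. The median level was 51.1% of the control mean in PCOS and 81.6% in PCOS-MV for the 28 genes, and 61.0% and 93.0% for the 2090. Both sets were chosen for low PCOS values in these same libraries, so these shares are a description without a test. Red blood cell genes were also low in PCOS-MV: 5 of 5 tested had an unadjusted p under 0.05 against control, 0 were called, 3 did not overlap, and their median log2 fold change was -1.29. Their part in the values of the 41 genes was not tested. The groups did not overlap for Angpt2 and Nos3, both lower in PCOS-MV than in control (2.29% of all genes were so, and 0 of the 41 genes against 2.81% of all lay higher without overlap), with log2 fold changes of -0.56 (95% interval -0.89 to -0.23) and -0.43. The exact permutation test gave a p of 0.0286 for both. A missed threshold does not show that the groups were alike: the interval for Kdr was -0.57 to -0.02 and for Angpt1 -1.23 to 0.09.

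Other genes of the same pathways were taken from lists of 94 symbols, of which 86 were tested. In PCOS 36 of them fell and 10 rose (53.5% called; of all genes 15.6% fell and 11.9% rose), and in PCOS-MV against PCOS 28 rose and 11 fell (45.3% called; of all genes 14.3% rose and 11.4% fell). For each list below, the share called in PCOS and then in PCOS-MV against PCOS reads against 27.4% and 25.7% of all genes. Of 27 other genes of endothelial cells, 18 fell and 2 rose in PCOS (74.1%), and 12 rose and 4 fell in PCOS-MV against PCOS (59.3%). The largest changes were those of Exoc3l2, an exocyst-related gene, of Thbd, the thrombin receptor thrombomodulin, and of Myct1. Exoc3l2 was 25.1 ± 8.72 FPKM in control, 11.1 ± 2.41 in PCOS and 31.1 ± 5.61 in PCOS-MV, Thbd 14.4 ± 1.69, 5.39 ± 0.536 and 10.5 ± 2.57, and Myct1 15.4 ± 3.24, 6.24 ± 1.62 and 11.9 ± 2.91. Each of the 3 fell and then rose, by log2 fold changes of -1.08 and 1.42, -1.27 and 0.82, and -1.19 and 0.84.

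Ligands and receptors outside the core list did not move as one. Of 10 tested, the receptor Fgfr1 included, 4 rose and 2 fell in PCOS (60%), and 2 rose and 3 fell in PCOS-MV (50%). Ptn, pleiotrophin, a heparin-binding growth factor of stroma, was at 32.0, 21.4, 27.9 and 23.5 FPKM in the control libraries, 180, 194, 233 and 202 FPKM in the PCOS libraries and 25.4, 29.3, 27.7 and 26.7 FPKM in the PCOS-MV libraries. The PCOS libraries lay far above all others, with a rise of 2.91 (SE 0.13, adjusted p = 6.6e-06) and a fall of 2.84 (SE 0.09, adjusted p = 5.58e-06). Angpt4, another ligand of Tek, went from 1.41 to 2.16 FPKM in control to 8.69 to 12.7 FPKM in PCOS and 1.55 to 3.82 FPKM in PCOS-MV. It rose by 2.15 (SE 0.13, adjusted p = 1.68e-05) and fell by 1.54 (SE 0.22, adjusted p = 0.0017). Angptl4, an inhibitor of lipoprotein lipase, was 48.5 to 75.2 FPKM in control, 21.1 to 30.4 FPKM in PCOS and 64.8 to 73.7 FPKM in PCOS-MV, a fall of 1.17 (SE 0.16, adjusted p = 0.00094) and a rise of 1.35 (SE 0.12, adjusted p = 0.000204).

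Of 12 other Notch genes, 4 fell and 2 rose in PCOS (50%), and 3 rose and 2 fell in PCOS-MV (41.7%). Notch3, the receptor of mural cells, fell by 1.22 (SE 0.10, adjusted p = 5.46e-05) and rose by 0.83 (SE 0.13, adjusted p = 0.00282), and the ligand Jag2 fell by 1.14 (SE 0.08, adjusted p = 3.7e-05) and rose by 0.68 (SE 0.15, adjusted p = 0.0121). Hes1, a target of Notch and other pathways, was not called in PCOS (0.26, adjusted p = 0.508) and fell by 0.97 in PCOS-MV (SE 0.24, adjusted p = 0.0178). Of 12 arterial, venous and guidance genes, 4 fell and 2 rose in PCOS (50%), and 3 rose and 2 fell in PCOS-MV (41.7%). Sema3f, a ligand of Nrp2, fell by 1.04 and rose by 0.73 (SE 0.19, adjusted p = 0.00448 and SE 0.08, adjusted p = 0.000478). Efnb2, the ephrin of arteries, fell by 0.80 (SE 0.16, adjusted p = 0.00575), while Slit3, a ligand of Robo receptors, rose by 1.01 (SE 0.08, adjusted p = 5.28e-05). Their differences in PCOS-MV against PCOS, 0.72 and -0.25, were not called.

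Of 9 genes of the ALK1 and BMP9 branch, 2 fell in PCOS and the same 2 rose in PCOS-MV against PCOS: the receptor Acvrl1 (-0.54 and 0.39) and the target Id2 (-1.53 and 1.27). These are 22.2% called in each comparison, below the share of all genes, 27.4% and 25.7%. Of 10 inhibitors of vessel growth, 6 fell and 0 rose in PCOS (60%), and 5 rose and 0 fell in PCOS-MV (50%). Spry4, which limits receptor tyrosine kinase signals, fell by 1.55 and rose by 1.10 (SE 0.14, adjusted p = 0.000112 and SE 0.15, adjusted p = 0.00125). Thbs2, a thrombospondin, was 2.19 to 4.24 FPKM in control, 0.345 to 0.486 FPKM in PCOS and 1.90 to 3.75 FPKM in PCOS-MV. Adamts1, an ovulation-related matrix protease, was 30.8 to 72.8 FPKM, 16.0 to 21.2 FPKM and 27.1 to 64.1 FPKM in the same order. Of 6 tested genes of the oxygen-sensing pathway that acts on Vegfa, 0 were called in PCOS (limma; 1 at an unadjusted p under 0.05). In PCOS-MV against PCOS only Hif1a was called, with a rise of 0.29 (SE 0.07, adjusted p = 0.0139), from 75.1 ± 4.18 to 91.9 ± 2.51 FPKM, and its control mean was 83.7 ± 8.32 FPKM. The other gene of that list, Hif3a, a HIF subunit with isoforms that restrain the others, had a mean under 1 FPKM and was not tested. It was at 0.264 to 0.510 FPKM in control, 1.40 to 1.81 FPKM in PCOS and 0.221 to 0.570 FPKM in PCOS-MV, so that all PCOS libraries lay above all others; it is named here after its values were seen.

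Markers of other cells also differed between the groups, some in the direction of these genes and some against it. Their part in the results was not tested. The counts below read against 27.4% of all genes called in PCOS and 25.7% in PCOS-MV against PCOS. The summed FPKM of 8 pericyte markers, the cells that wrap capillaries, was 164 to 180 in control, 109 to 147 in PCOS and 143 to 161 in PCOS-MV libraries, and 6 of the 8 fell in PCOS and 4 rose in PCOS-MV. Of 5 tested luteal markers, 3 fell and 1 rose in PCOS (80% called), and 2 rose and 1 fell in PCOS-MV (60% called), so the list did not move as a whole. Their sum was 2972 to 5048 FPKM in control, 1156 to 2266 FPKM in PCOS and 2190 to 4592 FPKM in PCOS-MV. Much of that sum was Star, the cholesterol carrier of steroid synthesis, so the 2 are not separate observations. Star was 1864 to 2793 FPKM in control, 462 to 1151 FPKM in PCOS and 1589 to 2891 FPKM in PCOS-MV. The sum of 4 theca markers was 46.8 to 91.9 FPKM in control, 1578 to 3075 FPKM in PCOS and 27.2 to 125 FPKM in PCOS-MV, which in PCOS is nearly all Cyp17a1 and Insl3. These 2 rose in PCOS, Ptch1, a receptor of hedgehog signals, fell by 0.43, and Gli1 was not called; in PCOS-MV against PCOS, Cyp17a1, Insl3 and Gli1 fell. The sum of 7 granulosa markers was 614 to 852 FPKM, 1070 to 1506 FPKM and 603 to 1061 FPKM in the same order, with 4 of the 7 higher in PCOS and 3 lower in PCOS-MV against PCOS.

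Markers of fat cells differed between libraries as well. Of 3 tested, 3 fell in PCOS (100% called) and 1 rose in PCOS-MV against PCOS (33.3%), beside 27.4% and 25.7% of all genes. Adipoq, the defining hormone of adipocytes, was at 15.3, 3.68, 26.0 and 7.93 FPKM in the control libraries, 0.654, 2.95, 1.40 and 1.07 FPKM in the PCOS libraries and 0.845, 1.56, 1.70 and 0.987 FPKM in the PCOS-MV libraries. All control values lay above all others, and the PCOS-MV values lay within the PCOS range. The sum of 5 adipocyte markers was 14.1 to 59.7 FPKM in control, 2.49 to 6.72 FPKM in PCOS and 4.72 to 35.7 FPKM in PCOS-MV, where it was mostly Fabp4, a gene that capillary endothelium and macrophages also use. Without control replicates 1 and 3, which had the highest sums and were left out together after the data were seen, 26 of the 41 genes were called lower and 3 higher in PCOS, against 28 and 5 with them. Control replicates 2 and 4, which remained, still had sums of 14.1 and 25.6 FPKM, above all PCOS libraries. This run therefore did not even out the fat markers between the groups. Without control replicate 3 alone, 27 were called lower and 5 higher. Of 5 tested red blood cell genes, 0 were called in PCOS (limma; 0 at an unadjusted p under 0.05) and 1, Hba-a2, was lower in PCOS-MV than in PCOS, with sums of 980 to 1537 FPKM in control, 530 to 1473 FPKM in PCOS and 318 to 818 FPKM in PCOS-MV. Of 6 tested leukocyte markers, 2 rose and 0 fell in PCOS (33.3% called), and 1 rose and 2 fell in PCOS-MV against PCOS (50%). Leukocyte markers summed to 51.4 to 71.7 FPKM in control, 67.2 to 78.3 FPKM in PCOS and 63.5 to 81.5 FPKM in PCOS-MV.

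**Figure D4:**
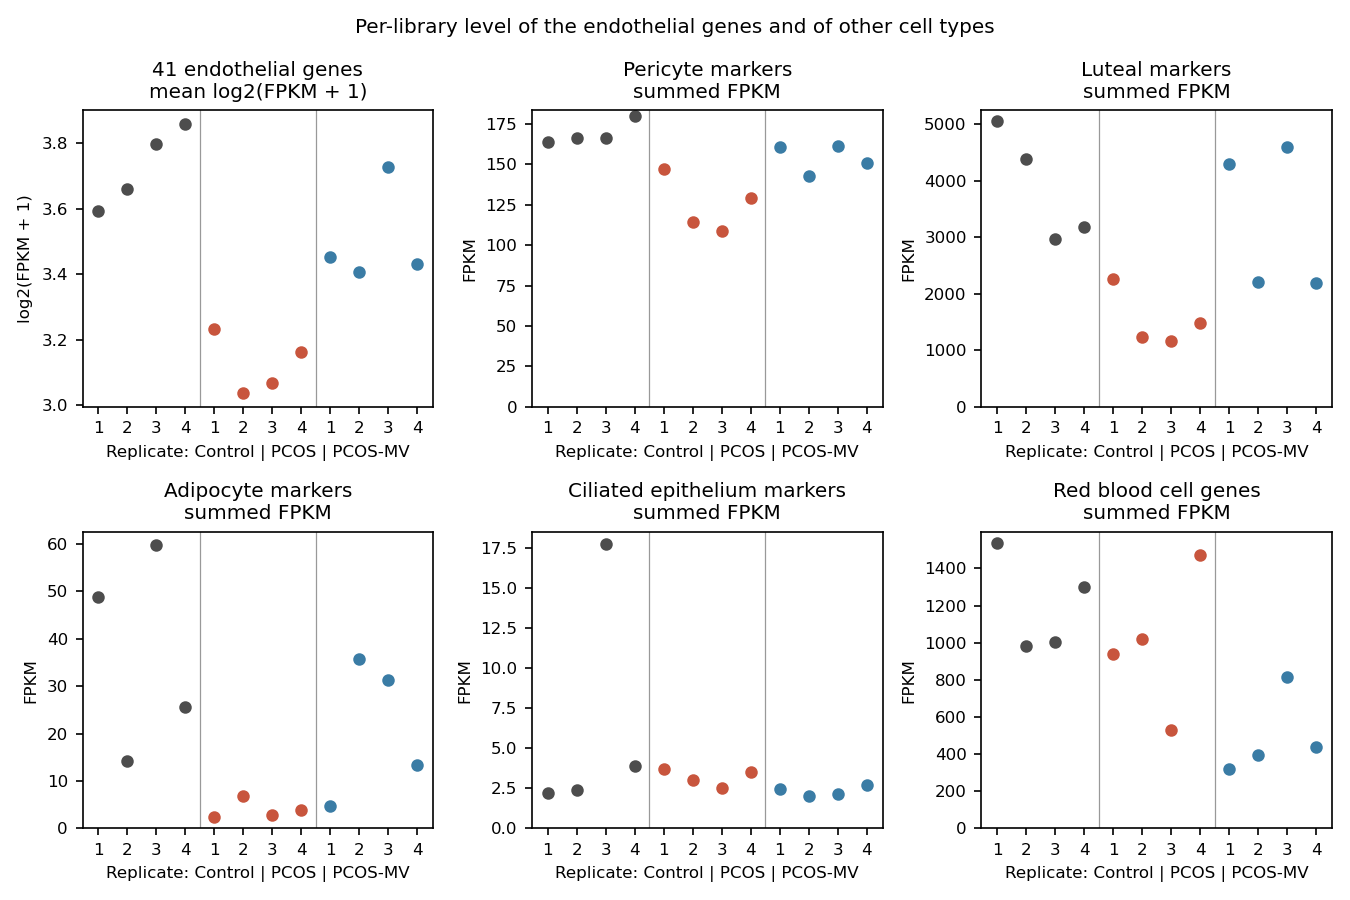
Per-library mean log2(FPKM + 1) of the 41 endothelial genes (its axis does not start at 0) and summed FPKM of 5 sets of markers of other cells, with replicates 1 to 4 of each group from left to right. The 4 PCOS libraries are the lowest for the endothelial genes, at 3.04 to 3.23 against 3.41 to 3.86 in the other 8, and control replicate 3 stands alone for ciliated epithelium markers.

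The libraries of a group did not move alike. Control replicate 4 held the highest value of its group for 23 of the 41 genes, PCOS replicate 1 for 23 and PCOS-MV replicate 3 for 24. The mean log2(FPKM + 1) over the 41 genes was 3.73 in PCOS-MV replicate 3 and 3.41 to 3.45 in the other 3 PCOS-MV libraries, and its luteal sum of 4592 FPKM was also the highest of that group.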

How the data were processed

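Whole-ovary RNA of 12 rats (4 per group) was sequenced in 1 library per rat (NEBNext Ultra RNA kit; strand handling is not given in the sources used here, so reads of overlapping antisense genes cannot be told apart). Libraries were assigned to groups and replicates by their titles and treatments in the labels. The authors deposited FPKM values per gene, computed from featureCounts read counts and gene lengths after HISAT2 alignment according to the study's methods, while the submitters' processing notes name STAR 2.5.1b and HTSeq 0.6.0; which of them made the table is not settled, and the genome build is not given in the sources used here. The same table holds the authors' own comparisons (log2 fold changes, p-values and adjusted p-values, 6 columns) and 4 columns of group means, none of which was used.

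The 26928 transcript lines were reduced to 1 line for each of 19730 genes. For each gene whose mean over the 12 libraries reached 1 FPKM, log2(FPKM + 1) was compared between 2 groups at a time by limma (version 3.58.1, under R 4.3.3; lmFit, then eBayes with trend), with Benjamini-Hochberg adjustment over all 13430 genes and a threshold of 0.05. A fold change on this scale understates the change of low genes. The limma step was tested on simulated data. An exact two-sided permutation test on log2(FPKM + 1) was added for each gene. The precision rests on 4 rats a group, since depth is unknown, and an exact 0 was not read as absence. The genes and lists described were chosen with earlier results of these data known. Named genes were each gene of the list, with the value in every library for VEGF ligands, VEGF receptors and angiopoietins and for the 20 called, non-overlapping genes of largest change, and up to 3 called genes of largest change from each pathway list. Alternatives covered the pseudocount (0.1 and 5), the filter (none and 5 FPKM), all 12 libraries in 1 model, a replicate block, median-ratio rescaling, no trend, and each library left out in turn. Promoter windows and their motifs came from the RefSeq table of GRCr8.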

Additional observations from a re-analysis of the deposited data

Results flagged for a closer look

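In 6 of 123 groups of 4 libraries (41 genes in 3 groups), 1 library lay far from the other 3 by Dixon's test on log2(FPKM + 1), and chance alone gives about 6.15. PCOS-MV replicate 3 stood above the rest of its group for 4 genes: Gpihbp1 at 45.5 FPKM against 10.2 to 12.1 FPKM, Angpt1 at 14.3 FPKM against 5.24 to 6.26 FPKM, Tek at 16.4 FPKM against 13.3 to 13.7 FPKM and Sox17 at 6.96 FPKM against 4.95 to 5.20 FPKM. PCOS-MV replicate 2 lay below its group for Flt4, at 7.41 FPKM against 10.2 to 10.9 FPKM. Control replicate 4 lay above its group for Nos3, at 8.77 FPKM against 7.12 to 7.29 FPKM. On the FPKM scale, tried after the data were seen, 10 groups held such a library: Flt4 was no longer among them, and PCOS replicate 1 for Nrp1 and Tie1, PCOS-MV replicate 3 for Cdh5 and control replicate 3 for Sox7 and Sox17 were added, with Sox7 at 4.80 FPKM against 1.43 to 1.94 FPKM and Sox17 at 23.5 FPKM against 5.87 to 8.52 FPKM.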

How the results depend on the processing

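No change of a listed gene that was called in a comparison reversed in that comparison under any alternative run. The number of listed genes called higher in PCOS against control was the least stable count: 5 became 3 without the filter on low values, 3 without control replicates 1 and 3 together and 1 to 5 with 1 library left out, and the 28 called lower became 24 to 27. In PCOS-MV against PCOS, the 19 called higher became 12 to 19 (12 without PCOS replicate 2 or PCOS replicate 4) and the 4 called lower 3 to 4. Over all genes in that comparison, 1918 called higher became 1272 to 1934 (1278 without PCOS replicate 2, 1272 without PCOS replicate 4). In PCOS-MV against control, 0 listed genes were called under each alternative. Over all genes there, the 1 called higher became 0 with a mean of at least 5 FPKM, 0 with all 12 libraries in 1 model and 1 to 2 with 1 library left out, and the 0 called lower became 1 with the 12-library model and 0 to 2 with 1 left out. A mean of at least 5 FPKM left 34 of the 41 genes.

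The labels do not say that a replicate number marks a shared litter, batch or day. In PCOS-MV against PCOS the same-number correlation of deviations was 0.101, 0.172 and 0.136 for replicates 1 to 3. Each was above that of the same PCOS-MV library with any PCOS library of another number. For replicate 4 it was 0.0353, so this is a hint of pairing but not in every pair. In PCOS against control the same-number correlation was -0.0327 to 0.0236, each below the highest with another number (0.0285 to 0.052). In PCOS-MV against control it was 0.216 for replicate 1, close to the highest with another number (0.204). For replicates 2 to 4 it was -0.0534, 0.0493 and 0.082. Those of replicates 2 to 4 lay below the highest with another number (0.0464, 0.163 and 0.096). With the replicate block, 2 listed genes were called higher and 24 lower in PCOS, 15 higher and 4 lower in PCOS-MV against PCOS, and 0 genes of the whole table higher in PCOS-MV against control. The calls lost with the block were Notch4, Tek, Nrp1, Hey1, Angpt2, Nrp2 and Robo4 in PCOS (adjusted p of 0.0602 to 0.1) and Erg, Tie1, Nrp2 and Mmrn2 in PCOS-MV against PCOS (0.0564 to 0.0903).

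Reversals were of uncalled values near 0. With median-ratio rescaling Notch1 in PCOS-MV against PCOS was -0.0120. With 1 library left out, the log2 fold change in PCOS ranged from -0.18 to 0.00232 for Vegfb and -0.13 to 0.0162 for Prox1. In PCOS-MV against PCOS it ranged from -0.0865 to 0.0622 for Notch1, -0.0593 to 0.0380 for Notch4, -0.0381 to 0.0691 for Tek, -2.17e-05 to 0.26 for Icam2 and -0.0208 to 0.16 for Sox17. In PCOS-MV against control it ranged from -0.0640 to 0.0876 for Prox1, -0.42 to 0.28 for Apln, -0.0802 to 0.0819 for Lyve1, -0.28 to 0.0136 for Cdh5, -0.30 to 0.0761 for Dll4, -0.14 to 0.00860 for Eng, -0.28 to 0.00984 for Tie1 and -0.0350 to 0.25 for Hey1. The causes of these changes were not tested.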
